A study of Mus musculus with 16 samples.

Results

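The genes described are 10 of the Nodal and Lefty signalling pathway in mouse embryonic stem cells: the ligands Nodal and Gdf3, the co-receptor Tdgf1, the receptors Acvr1b and Acvr2b, the transducers Smad2 and Smad3, and the inhibitors Lefty1, Lefty2 and Skil. They were chosen by name for their place in the pathway, with earlier results of these data known, and found by symbol among 52636 gene identifiers. All 10 passed the filter on low counts, which left 12215 genes for testing. The data are RNA sequencing counts, after removal of ribosomal RNA, from 16 samples of an embryonic stem cell line with a construct that drives the ERK pathway once 4-hydroxytamoxifen (4OHT) is added. The line was grown without serum in medium with LIF and a GSK3 inhibitor, and in every sample PD17, an FGF receptor inhibitor, had replaced the usual MEK inhibitor for 48 h at 250 nM. The 0h group had received only PD17. The 2h and 4h groups had also received 250 nM 4OHT for 2 h or 4 h, and the rev group had 4 h of 4OHT followed by 2 h more with a MEK inhibitor. Each group held 4 samples, with 2 replicates from each of 2 clones (clone 4 and clone 8), so that any feature of a clone is shared by all of its samples. No group received the vehicle of 4OHT, and there was no 6 h sample without MEK inhibition, so effects of 4OHT itself and of the later time point cannot be told apart from those of ERK induction and of MEK inhibition.

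Nodal is a secreted protein of the TGF-beta superfamily that is best known for inducing mesoderm and endoderm and for setting the left-right axis of the embryo. It binds type I and type II activin receptors together with a co-receptor of the EGF-CFC family. The receptors phosphorylate Smad2 and Smad3, which enter the nucleus with Smad4 and bind DNA with partners such as Foxh1. Lefty proteins are secreted antagonists that are themselves targets of the pathway, which gives it a negative feedback loop. Mouse embryonic stem cells express the ligands, the co-receptor and the Lefty genes, and the pathway is active in them as they are grown.

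Promoter sequences were available from RefSeq (GRCm38.p6) for 5 of the 10 genes, namely Nodal, Tdgf1, Acvr1b, Acvr2b and Smad3, and not used here for Gdf3, Smad2, Lefty1, Lefty2 and Skil. The 3 shown belong to the co-receptor gene, which rose and fell back, to a transducer gene that fell and rose again in part, and to the ligand gene that gives the pathway its name. Each runs 5′ to 3′ on the gene's own strand, from 250 bases before the annotated start to 50 after it. Capitals mark matches on either strand to the FOXH1 core TGTNNATT, the SMAD palindrome GTCTAGAC, the SMAD element CAGAC, the ETS motif CCGGAAGT or the AP-1 motif TGANTCA.
Tdgf1, chr9:110946109-110946408, minus strand: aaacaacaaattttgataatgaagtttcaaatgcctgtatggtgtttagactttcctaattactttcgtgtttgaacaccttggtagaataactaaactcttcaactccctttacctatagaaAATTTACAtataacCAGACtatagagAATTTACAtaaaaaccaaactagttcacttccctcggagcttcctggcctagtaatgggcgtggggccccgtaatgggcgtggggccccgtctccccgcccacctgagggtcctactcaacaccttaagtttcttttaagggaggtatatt
Smad3, chr9:63757945-63758244, minus strand: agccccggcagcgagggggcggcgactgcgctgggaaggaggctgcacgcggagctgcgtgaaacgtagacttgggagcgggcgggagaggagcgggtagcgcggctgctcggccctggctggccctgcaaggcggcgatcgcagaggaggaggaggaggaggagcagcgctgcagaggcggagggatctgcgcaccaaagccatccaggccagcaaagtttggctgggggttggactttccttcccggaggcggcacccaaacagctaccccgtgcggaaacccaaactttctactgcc
Nodal, chr10:61417722-61418021, plus strand: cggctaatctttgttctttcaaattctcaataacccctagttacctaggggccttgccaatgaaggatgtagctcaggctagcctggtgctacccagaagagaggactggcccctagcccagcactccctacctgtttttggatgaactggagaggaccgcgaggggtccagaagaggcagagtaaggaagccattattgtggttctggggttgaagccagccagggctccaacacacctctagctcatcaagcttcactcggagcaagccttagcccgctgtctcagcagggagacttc
The Tdgf1 window held the FOXH1 core at 2 places, both on the reverse strand and read as AATTTACA on the printed one, beginning at positions -127 and -101 from the start, with a CAGAC at -113 between them. Of 32851 promoters of the same length, 12.2% held the FOXH1 core at least once and 1.43% held it at 2 or more places, while 49.6% held CAGAC. None of the 5 motifs was found in the Smad3, Nodal or Acvr1b window, and the Acvr2b window held 1 CAGAC on the reverse strand, at -233. The SMAD palindrome was present in 0.213% of promoters, the ETS motif in 3.89% and the AP-1 motif in 7.81%. These are matches of letters, not sites.

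Total counts per library ranged from 2172651 to 12680303, and 8 highly abundant gene models took 42.0% to 80.4% of them. Outside those models the 2 shallowest libraries held 896905 counts (clone 4 replicate 2 at 2h) and 940289 counts (clone 8 replicate 2 of rev). Levels are given as CPM, the count of a gene relative to the size of its library after scaling by TMM factors (0.463 to 1.47). The summed level of 8 embryonic stem cell markers was 1537 to 2239 CPM over the 16 libraries, against 3.26 to 7.21 CPM for primitive endoderm markers. Among the stem cell markers Nanog went from a mean of 394 CPM at 0h to 250 CPM at 4h and 392 CPM in rev, Tfcp2l1 from 704 to 569 and 715, Dppa3 from 47.7 to 33.1 and 42.1 and Klf4 from 103 to 84.3 and 114, in the direction of Lefty1 and Smad3. Sox2 (172, 226 and 180 CPM), Zfp42 (80.1, 107 and 78.5) and Pou5f1 (126, 151 and 119) moved in the direction of Tdgf1, and Esrrb was at 259, 306 and 302 CPM. The ERK target genes Spry4, Dusp6 and Egr1 summed to 19.7 to 33.7 CPM at 0h, 529 to 810 CPM at 2h, 471 to 715 CPM at 4h and 8.12 to 23.7 CPM in rev. The summed level of 5 mesendoderm markers, which include the Nodal targets Eomes and Gsc, was 9.01 to 14.7 CPM at 0h, 9.73 to 18.4 CPM at 2h, 16.3 to 26.2 CPM at 4h and 12.4 to 16.7 CPM in rev. For 4 trophoblast markers it was 3.86 to 7.88, 6.67 to 12.3, 9.47 to 15.4 and 7.29 to 12.3 CPM in the same order. Within these lists T went from a mean of 1.74 CPM at 0h to 10.1 CPM at 4h and Cdx2 from 1.32 to 4.73 CPM, Eomes, on both lists, from 3.85 to 7.46 CPM, and Gsc from 3.76 to 1.30 CPM, while Mesp1 had at most 2 counts and Elf5 and Hand1 at most 5 in any library. For 4 neural markers the sum was 19.0 to 46.4 CPM at 0h, 14.7 to 36.3 CPM at 2h, 12.9 to 26.7 CPM at 4h and 27.0 to 37.6 CPM in rev, most of it Tubb3, whose mean was 29.2, 22.7, 15.1 and 26.6 CPM in the same order, with Neurog2 at no more than 1 count. Pax6 went the other way, at 0.84, 2.00, 2.27 and 2.01 CPM, and Sox1 was at 1.74, 1.08, 2.195 and 3.51 CPM. The mesendoderm and trophoblast sums moved with Tdgf1 and Skil and opposite to Lefty1 and Smad3, the neural sum, through Tubb3, moved with Lefty1 and Smad3, and the part of these markers and cell types in the results was not tested.

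Over the whole set, the level of Nodal itself was not called changed in any of the 5 comparisons, while Lefty1 and Smad3 fell during induction and rose again under MEK inhibition, and Tdgf1 did the opposite. Gdf3, Smad2 and Skil were higher at 4h than at 0h, as was Lefty2 by a small margin, and Acvr1b was lower, also by a small margin. A gene is called higher or lower where the adjusted p of edgeR's quasi-likelihood test, with Benjamini-Hochberg adjustment over all 12215 genes, was under 0.05. At 2h against 0h, 2 of the 10 were higher and 3 lower, where 11.4% of all tested genes were higher and 9.68% lower (21.1% in either direction). At 4h against 0h, 5 were higher and 3 lower, against a background of 17.2% and 16.8%, so that 8 of 10 were called where 33.9% of all genes were. The 10 were not chosen independently of these data, so the comparison with all genes is a description. Their median log2 fold change was 0.16 and that of all genes -0.017. The median absolute log2 fold change was 0.42 among the 10 and 0.25 among all genes.

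**Figure D1:**
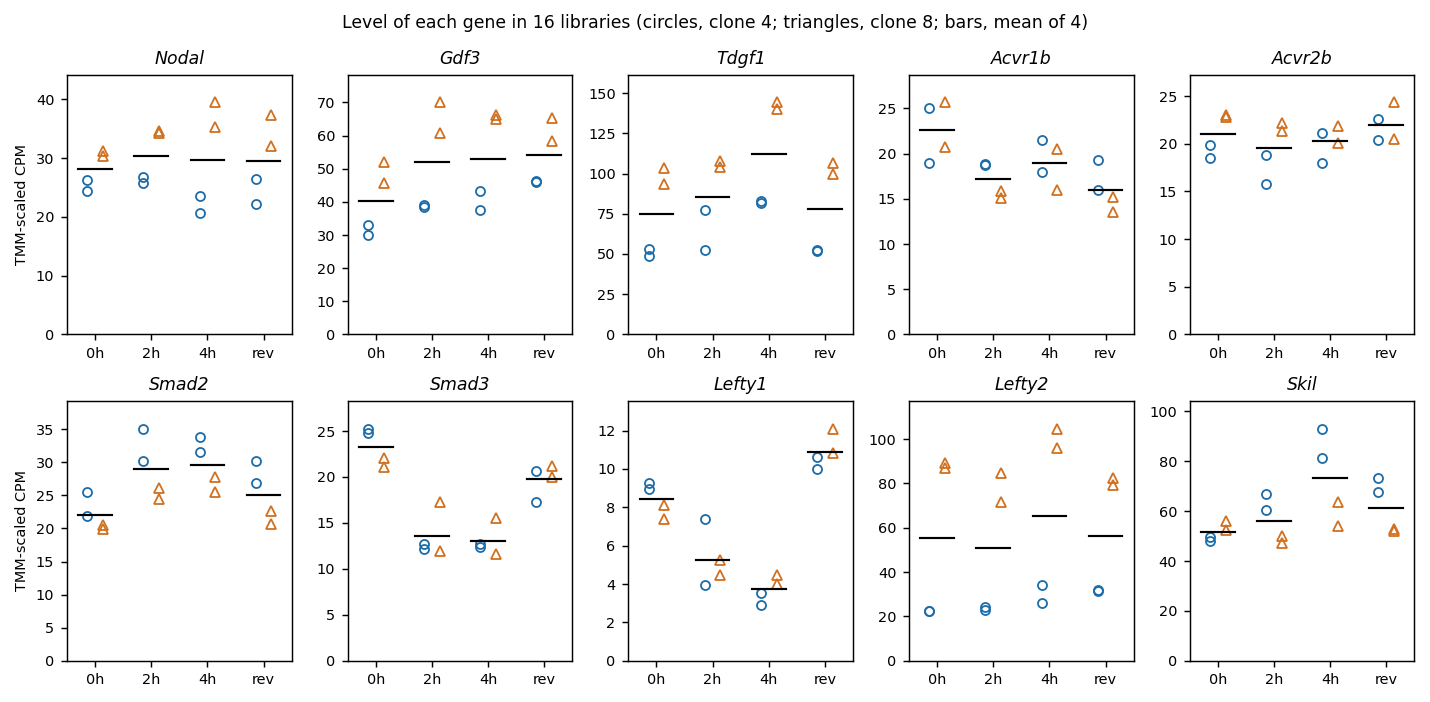
Level of each of the 10 genes (CPM, linear axis from 0) in the 4 groups, 1 point per sample, with clone 4 and clone 8 marked separately and the bar at the mean of each group (n = 4). Lefty1 fell from a mean of 8.43 to 3.73 CPM by 4h and stood at 10.9 CPM in rev, while the points of Lefty2 and Tdgf1 separate by clone in every group.

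Nodal (ENSMUSG00000037171, GRCm38 chromosome 10, 61417972 to 61425338, plus strand) encodes the ligand. It stood at 26.3 and 24.5 CPM in clone 4 and 31.2 and 30.4 CPM in clone 8 at 0h. The 4h values were 23.5 and 20.7 CPM in clone 4 and 39.5 and 35.3 CPM in clone 8. Clone 4 was thus lower and clone 8 higher at 4h than at 0h, and the pooled groups overlapped. The log2 fold change at 4h against 0h was 0.062 (SE 0.10, 95% interval -0.13 to 0.26, edgeR adjusted p = 0.655). The difference between the clones in that change, 0.48 (SE 0.18), had an unadjusted p of 0.0111 in edgeR and an adjusted p of 0.246. At 2h the log2 fold change was 0.11 (SE 0.09, edgeR adjusted p = 0.446), with an interval of -0.083 to 0.30. In rev the 4 values lay between 22.2 and 37.3 CPM.

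Gdf3 (ENSMUSG00000030117, chromosome 6, 122605403 to 122610087, minus strand), a related ligand that also uses the Tdgf1 co-receptor, rose by 2h. Its level at 0h was 33.1 and 30.0 CPM in clone 4 and 51.9 and 45.8 CPM in clone 8. At 2h it was 38.3 and 39.0 CPM in clone 4 and 60.7 and 70.0 CPM in clone 8. In each clone both 2h values lay above both 0h values, although the pooled groups overlapped because the clones stood apart. The log2 fold change was 0.38 at 2h (SE 0.08, edgeR adjusted p = 0.00117) and 0.40 at 4h (SE 0.09, adjusted p = 5.0e-04). Values of 46.3 and 46.0 CPM in clone 4 and 58.5 and 65.4 CPM in clone 8 followed in rev. The mean went from 40.4 CPM at 4h to 46.2 CPM in rev in clone 4 and from 65.6 to 61.9 CPM in clone 8. Over both clones the change from 4h was 0.055 (edgeR adjusted p = 0.717) and that from 0h 0.45 (SE 0.09, adjusted p = 3.0e-04).

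Tdgf1 (ENSMUSG00000032494, chromosome 9, 110939603 to 110946158, minus strand), also known as Cripto, encodes the co-receptor that Nodal and Gdf3 require. It was at 48.9 and 53.1 CPM in clone 4 and 104 and 93.2 CPM in clone 8 at 0h. By 2h it was at 52.2 and 77.5 CPM in clone 4 and 104 and 108 CPM in clone 8, a log2 fold change of 0.17 that was not called (edgeR adjusted p = 0.153). At 4h it reached 81.4 and 82.8 CPM in clone 4 and 140 and 144 CPM in clone 8. Both clones were thus higher at 4h than at 0h in every sample, and a 1.52-fold rise was measured (log2 fold change 0.60, SE 0.08, edgeR adjusted p = 7.0e-07). After MEK inhibition the values were 52.0 and 52.6 CPM in clone 4 and 99.9 and 107 CPM in clone 8, close to those at 0h. That fall was -0.56 on the log2 scale (SE 0.08, edgeR adjusted p = 9.4e-06), and rev differed from 0h by 0.041 (95% interval -0.13 to 0.22, adjusted p = 0.778). Of its 50-base stretches, 8.86% were shared with the pseudogene Tdgf1-ps1, which had 3 to 37 counts per library and at most 3.89% of the Tdgf1 count, so the Tdgf1 level is uncertain to that extent.

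Of the receptor genes, Acvr1b (ENSMUSG00000000532, chromosome 15, 101174067 to 101213684, plus strand), which encodes ALK4, the type I receptor whose kinase phosphorylates Smad2 and Smad3, was lower at 2h. It ranged from 19.0 to 25.7 CPM at 0h and from 15.1 to 18.8 CPM at 2h, without overlap, a log2 fold change of -0.46 (SE 0.11, edgeR adjusted p = 0.00249). At 4h it ranged from 15.95 to 21.4 CPM, overlapping 0h, and the call rested on single libraries. Its value of -0.30 (SE 0.11, edgeR adjusted p = 0.0378) gave an adjusted p of 0.10 to 0.224 without replicate 2 of either clone at 0h, replicate 2 of clone 4 at 4h or replicate 1 of clone 8 at 4h, and of 0.0506 with a replicate block. Nor was it called by DESeq2 (adjusted p = 0.0758), or by edgeR without the low-count filter (0.0848) or with only the 2 groups compared (0.0843). Without clone as a covariate (edgeR adjusted p = 0.147) and with library size alone (0.76) the call was lost as well. In rev the range was 13.5 to 19.3 CPM, lower than at 0h by edgeR (log2 fold change -0.53, SE 0.12, adjusted p = 0.00156). Acvr2b (ENSMUSG00000061393, chromosome 9, 119402118 to 119434995, plus strand), a type II receptor that binds ligand and activates the type I receptor, ranged from 15.8 to 24.3 CPM over the 16 libraries and was called in no comparison, with log2 fold changes of -0.11 to 0.11 and edgeR adjusted p of 0.467 to 0.805.

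The transducers Smad2 and Smad3, which carry the receptor signal to the nucleus, moved in opposite directions. Smad3 (ENSMUSG00000032402, chromosome 9, 63646767 to 63757994, minus strand) stood at 25.3 and 24.8 CPM in clone 4 and 22.0 and 21.1 CPM in clone 8 at 0h. At 2h it was at 12.2 and 12.7 CPM in clone 4 and 12 and 17.3 CPM in clone 8, and at 4h at 12.8 and 12.4 CPM and 15.6 and 11.6 CPM. Every induced sample lay below every 0h sample. The log2 fold change was -0.73 at 2h (SE 0.12, edgeR adjusted p = 2.6e-05) and -0.81 at 4h (SE 0.13, adjusted p = 4.8e-06). In rev Smad3 was at 17.3 and 20.6 CPM in clone 4 and 20.1 and 21.2 CPM in clone 8, above every 4h sample. That rise was 0.57 on the log2 scale (SE 0.13, edgeR adjusted p = 0.0025). Smad2 (ENSMUSG00000024563, chromosome 18, 76241580 to 76310963, plus strand) ranged from 19.9 to 25.5 CPM at 0h, 24.5 to 35.1 CPM at 2h and 25.5 to 33.9 CPM at 4h. In each clone both 2h and both 4h values lay above both 0h values. Its log2 fold change was 0.41 at 2h (SE 0.09, edgeR adjusted p = 9.7e-04) and 0.43 at 4h (SE 0.09, adjusted p = 3.4e-04). In rev it ranged from 20.7 to 30.2 CPM, and neither the change from 4h (-0.24, edgeR adjusted p = 0.0697) nor that from 0h (0.20, adjusted p = 0.139) was called.

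Lefty1 (ENSMUSG00000038793, chromosome 1, 180935022 to 180938400, plus strand) encodes a secreted antagonist that blocks Nodal and its co-receptor. At 0h it stood at 8.96 and 9.25 CPM in clone 4 and 7.40 and 8.12 CPM in clone 8. The 2h values were 7.38 and 3.94 CPM in clone 4 and 5.24 and 4.47 CPM in clone 8, and those at 4h 3.52 and 2.92 CPM and 3.99 and 4.47 CPM. Induced samples were below every 0h sample at both times. The log2 fold change was -0.64 at 2h (SE 0.17, edgeR adjusted p = 0.0052) and -1.23 at 4h (SE 0.19, adjusted p = 4.2e-06), a 2.35-fold lower level. In rev the values were 10.02 and 10.6 CPM in clone 4 and 12.1 and 10.8 CPM in clone 8, the highest of the 4 groups in both clones. Lefty1 rose 3.03-fold from 4h to rev (log2 fold change 1.60, SE 0.18, edgeR adjusted p = 7.3e-08). All 4 rev samples were also above all 4 at 0h, but that difference of 0.36 (95% interval 0.039 to 0.69) was not called (edgeR adjusted p = 0.0968). These levels rest on 9 to 94 counts per library, where a count of 3, taken as the floor, is worth 0.213 to 1.35 CPM. In these bulk samples fewer cells expressing a gene and less RNA per cell cannot be told apart.

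Lefty2 (ENSMUSG00000066652, chromosome 1, 180893108 to 180899103, plus strand), the neighbouring paralogue and also a Nodal antagonist, was not called lower in any comparison. At 0h it was at 22.5 and 22.4 CPM in clone 4 and 89.2 and 87.0 CPM in clone 8. At 2h the values were 24.3 and 22.8 CPM in clone 4 and 71.6 and 84.6 CPM in clone 8, and the change of -0.088 was not called (edgeR adjusted p = 0.563). At 4h they were 34.2 and 26.2 CPM in clone 4 and 96.1 and 105 CPM in clone 8. Each clone was higher at 4h than at 0h, by 0.26 on the log2 scale (SE 0.10, edgeR adjusted p = 0.0372). That call depended on single libraries: the adjusted p was 0.0523 to 0.142 without either clone 4 sample at 0h, replicate 1 of clone 4 at 4h or either clone 8 sample at 4h. In rev the values were 32.1 and 31.5 CPM in clone 4 and 79.4 and 82.5 CPM in clone 8, with no call against 4h (-0.13, edgeR adjusted p = 0.392) or 0h (0.13, adjusted p = 0.393). Of the 50-base stretches of Lefty1, 17.9% were shared with Lefty2, and 12% of those of Lefty2 were shared, nearly all with Lefty1. Reads may thus be split between the paralogues, and both levels are uncertain. These shares do not bound the error in Lefty1, since Lefty2 stood far higher in clone 8, at a mean of 88.1 CPM against 7.76 CPM at 0h. How much of the Lefty1 level comes from Lefty2 reads was not tested.

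The share of Lefty1 among the counts of both Lefty genes gives their balance within a library, without scaling between libraries. In clone 4 it was 28.4% and 29.2% at 0h, 23.3% and 14.8% at 2h, 9.33% and 10.04% at 4h and 23.8% and 25.3% in rev. In clone 8 it was 7.65% and 8.54% at 0h, 6.82% and 5.02% at 2h, 3.98% and 4.10% at 4h and 13.2% and 11.6% in rev. Within each clone the 4h shares were the lowest, and none overlapped the 0h or rev shares. The exact 95% interval, which covers counting error only, ran from 20.5% to 37.6% for the first clone 4 sample at 0h and from 6.47% to 12.9% for the first at 4h. In clone 8 the corresponding intervals were 5.66% to 10.1% and 2.48% to 6.03%, which overlap. No test was made of the share, and it carries the uncertainty from shared stretches given above.

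**Figure D2:**
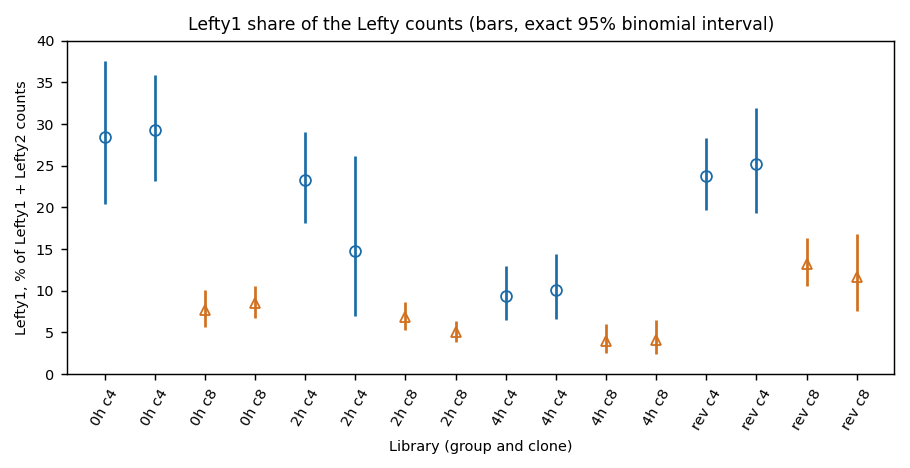
Lefty1 as a percentage of Lefty1 plus Lefty2 counts (linear axis) in each sample, by group and clone, with exact 95% binomial intervals as bars. The share fell to 9.33% and 10.04% in clone 4 and 3.98% and 4.10% in clone 8 at 4h and was higher again in rev.

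Skil (ENSMUSG00000027660, chromosome 3, 31095058 to 31122577, plus strand) encodes SnoN, a nuclear protein that binds Smads and represses their targets. At 0h it was at 49.7 and 48.2 CPM in clone 4 and 56.1 and 52.3 CPM in clone 8. By 4h it was at 93.1 and 81.3 CPM in clone 4 and 63.8 and 54.2 CPM in clone 8. In clone 4 both 4h values lay far above the 0h values, and in clone 8 the mean was 54.2 CPM at 0h and 59.0 CPM at 4h. Over both clones the log2 fold change was 0.48 (SE 0.10, edgeR adjusted p = 3.0e-04), made of 0.84 (SE 0.11) in clone 4 and 0.14 (SE 0.11) in clone 8. The difference between the clones, -0.70 (SE 0.15), passed the edgeR test (adjusted p = 0.023), as did 0.311% of all genes, and no other of the 10 did. No gene of the 10 passed it for 2h against 0h or rev against 4h, where 0.0901% and 0.00819% of all genes did, and 1 of the 10 in each had an unadjusted edgeR p under 0.05. The Skil difference was not called (edgeR adjusted p 0.0608 to 0.223) when any 1 of the 4 samples at 0h, replicate 1 of clone 4 at 4h or replicate 2 of clone 8 at 4h was left out. With library size alone it was -1.35 and not called (edgeR adjusted p = 0.108). Both clone 4 libraries at 4h also had the lowest shares of counts in the 8 abundant models, 42.0% and 51.7%, whose part in this difference was not tested. At 2h the values were 66.9 and 60.4 CPM in clone 4 and 50.2 and 47.3 CPM in clone 8, and in rev 73.1 and 67.5 CPM and 52.2 and 52.7 CPM.

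**Figure D3:**
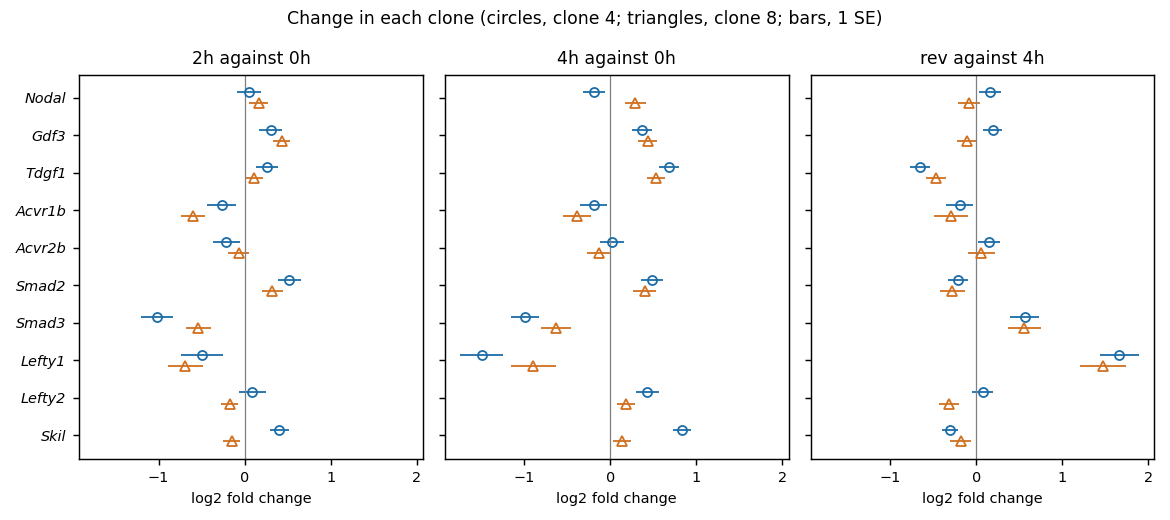
Log2 fold change of each of the 10 genes within clone 4 (circles) and clone 8 (triangles), for both induction times against 0h and for rev against 4h, with bars of 1 standard error. Skil lies at 0.84 in clone 4 and 0.14 in clone 8 for 4h against 0h, while Lefty1 and Smad3 lie on the same side of 0 in both clones in all 3 panels.

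Between 2h and 4h, 3 of the 10 genes were called higher and none lower, where 3.80% of all tested genes were higher and 3.52% lower (7.32% in either direction). The 3 were Tdgf1 (log2 fold change 0.43, SE 0.08, edgeR adjusted p = 6.1e-04), Skil (0.39, SE 0.10, adjusted p = 0.0102) and Lefty2 (0.35, SE 0.10, adjusted p = 0.0227). Skil lost the call without replicate 1 of clone 4 at 4h (edgeR adjusted p = 0.0658), and Lefty2 without that sample, replicate 1 of either clone at 2h or replicate 2 of clone 8 at 4h (0.0547 to 0.121). Lefty1 had a log2 difference of -0.60 (SE 0.20) with overlapping groups and was not called (edgeR adjusted p = 0.06). It was called lower (edgeR adjusted p 0.0396 to 0.0497) without replicate 2 of clone 4 or of clone 8 at 2h, or replicate 2 of clone 8 at 4h. The median log2 fold change was 0.043 among the 10 and -0.0016 among all genes.

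From 4h to rev, Lefty1 and Smad3 rose and Tdgf1 fell, so that 2 of the 10 were higher and 1 lower, where 7.93% of all genes were higher and 8.43% lower (16.4% in either direction). The median of the 10 was -0.045 and that of all genes 0.014. The changes from 0h to 4h and from 4h to rev use the same 4h samples, so error in these alone gives opposite changes. As a share of the log2 change from 0h to 4h, the opposite change in rev was 129% for Lefty1, 93.1% for Tdgf1 and 69.9% for Smad3. The corresponding shares for Smad2 (54.8%), Skil (52.8%) and Lefty2 (51.5%) rest on changes in rev that were not called, and they differed by clone. As a ratio, the reversal was 0.44 in clone 4 and 0.69 in clone 8 for Smad2, 0.36 and 1.33 for Skil and -0.17 and 1.69 for Lefty2, against 1.11 and 1.65 for Lefty1, 0.96 and 0.88 for Tdgf1 and 0.57 and 0.88 for Smad3. Gdf3 (-13.9%) and Acvr1b (-76.1%) lay on average farther from 0h in rev than at 4h, also without a call against 4h. For Gdf3 the ratio was -0.52 in clone 4 and 0.24 in clone 8, and for Acvr1b -0.98 and -0.75. Rev against 0h gave 1 gene higher, Gdf3, and 1 lower, Acvr1b, where 12.4% of all genes were higher and 9.86% lower (22.3% in either direction). In that comparison the median was 0.11 among the 10 and -0.0068 among all genes.

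**Figure D4:**
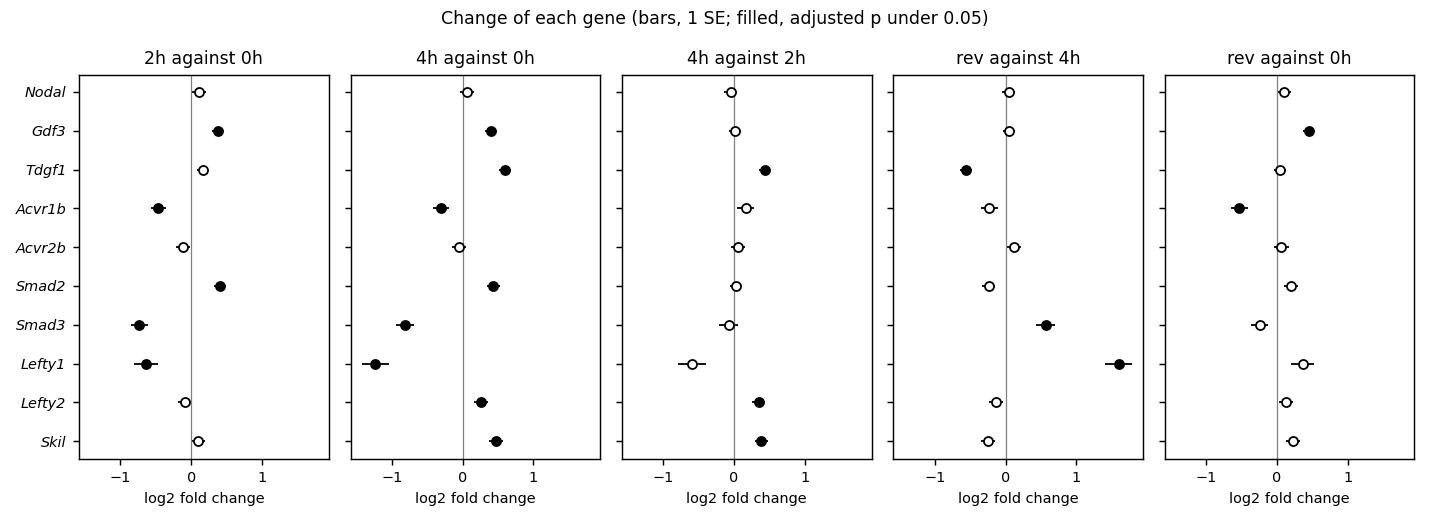
Log2 fold change of each of the 10 genes in the 5 comparisons, with standard errors as bars, filled where the edgeR adjusted p was under 0.05. Lefty1 and Smad3 lie below 0 at 2h and 4h and above 0 from 4h to rev, Tdgf1 the reverse, and Nodal lies near 0 throughout.

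The number of genes called depended on the scaling. When counts were scaled by library size alone, 1 of the 10 was higher at 4h than at 0h, Tdgf1 (edgeR adjusted p = 0.0409), and 1 lower, Lefty1 (log2 fold change -1.09, adjusted p = 0.00435), while none was called at 2h. Calls also fell over all 12215 genes under that scaling, to 554 higher and 327 lower at 4h and 204 higher and 134 lower at 2h. At 2h the fold changes were nearly the same without a call, for example -0.73 for Smad3 (edgeR adjusted p = 0.083) and -0.64 for Lefty1 (adjusted p = 0.255). Smad3 was also not called at 4h against 0h (-0.70, edgeR adjusted p = 0.0582). From 4h to rev that scaling left Lefty1 higher (1.16, edgeR adjusted p = 0.00234) and Tdgf1 lower (-1.003, adjusted p = 0.00115) and moved the median of all genes to -0.41. The rise of Smad3 was 0.15 there and not called (edgeR adjusted p = 0.662), or 0.55 relative to that median. It also called Smad2 (-0.66, edgeR adjusted p = 0.0451) and Skil (-0.68, adjusted p = 0.0342) lower, which relative to that median were -0.25 and -0.27, and over all genes 57 were higher and 1671 lower. Without clone as a covariate, 2 of the 5 genes higher at 4h against 0h were called, Smad2 and Skil, with 1459 of all 12215 genes higher, and Tdgf1 had an edgeR adjusted p of 0.178.

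The 2 clones differed in the level of 6 of the 10 genes over all groups, 4 higher and 2 lower in clone 8, where 15.4% of all genes were higher and 13.7% lower (29.1% in either direction). Lefty2 differed most, with 86.9 ± 10.2 CPM in clone 8 and 27.0 ± 4.85 CPM in clone 4 (SD, n = 8 each), a log2 difference of 1.68 (SE 0.07, edgeR adjusted p = 6.7e-19). No clone 4 value of Lefty2 overlapped a clone 8 value, whereas Lefty1 stood at 7.08 CPM in both clones. Tdgf1 (0.87, SE 0.06, edgeR adjusted p = 1.9e-13), Gdf3 (0.63, SE 0.06, adjusted p = 4.3e-10) and Nodal (0.49, SE 0.07, adjusted p = 8.1e-07) were also higher in clone 8. The ligands, the co-receptor and Lefty2 were thus higher in clone 8 in all 4 groups. Smad2 (-0.32, edgeR adjusted p = 2.4e-04) and Skil (-0.32, adjusted p = 7.2e-04) were lower in clone 8, Smad2 in all 4 groups and Skil in 3, since at 0h Skil had a mean of 54.2 CPM in clone 8 and 48.9 CPM in clone 4. With library size alone, Nodal (0.23, edgeR adjusted p = 0.309) and Gdf3 (0.36, adjusted p = 0.107) were not called. What sets the clones apart was not tested.

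Per kilobase of exon, the order of levels at 0h was Tdgf1 (28.5 ± 10.6 CPM per kb, SD, n = 4), Lefty2 (21.2 ± 14.5), Gdf3 (16.6 ± 4.28) and Nodal (13.4 ± 1.53), followed by Acvr2b, Skil, Acvr1b, Lefty1 and Smad3 at 4.20 to 5.35 and Smad2 at 2.503. Neighbours in this order overlapped within 1 SD, except Nodal and Acvr2b, and Smad3 and Smad2. The place of Lefty2 differed by clone: at 0h it was at 8.57 and 8.63 CPM per kb in clone 4, below Gdf3 (12.4 and 13.7) and Nodal (11.7 and 12.6), and at 33.3 and 34.2 CPM per kb in clone 8, where only Tdgf1 (35.6 and 39.6) was higher. At 4h Lefty1 stood at 2.12 ± 0.377 CPM per kb, within 1 SD of Smad3 at 2.36 ± 0.313, and in rev at 6.20 ± 0.496.

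Other genes of the Nodal, activin and TGF-beta pathways were counted from a list of 47 chosen from knowledge of the pathways, of which 32 were tested. As for the 10, earlier results of these data were known when the list was made, so its comparison with all genes is a description. The list, and every count and median given for it, includes the BMP targets Id1 and Id3, which were higher at both times and lower in rev. At 2h against 0h, 11 were higher and 1 lower, and at 4h against 0h 14 were higher and 2 lower, with medians of 0.21 and 0.30. Over all tested genes 11.4% were higher and 9.68% lower at 2h and 17.2% and 16.8% at 4h, with medians of -0.015 and -0.017. Library size alone left 3 higher and 0 lower at 2h, and 8 higher and 1 lower at 4h, where 204 and 134 of all 12215 genes were at 2h and 554 and 327 at 4h. Smad7, an inhibitory Smad that blocks the receptors, rose from 48.4 ± 7.13 CPM at 0h to 124 ± 25.3 CPM at 2h and 121 ± 14.2 CPM at 4h with 55.0 ± 9.70 CPM in rev (n = 4 each). Its log2 fold change was 1.33 at 4h against 0h (edgeR adjusted p = 3.8e-15) and -1.15 from 4h to rev (adjusted p = 7.7e-13). Tgif1, a co-repressor of Smad complexes, rose by 0.82 at 4h (edgeR adjusted p = 9.9e-10) and fell by 0.76 in rev (adjusted p = 2.9e-08). Foxh1, the DNA-binding partner of Smad2 and Smad3, went from 11.6 ± 1.70 CPM at 0h to 17.3 ± 1.28 CPM at 4h (log2 fold change 0.61, edgeR adjusted p = 1.7e-04) and 19.9 ± 2.40 CPM in rev.

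Among the ligands, Tgfb1 rose from 2.66 ± 0.420 CPM at 0h to 5.48 ± 1.08 CPM at 2h and 11.1 ± 1.41 CPM at 4h, a log2 fold change of 2.01 at 4h (edgeR adjusted p = 7.2e-11), and fell to 7.42 ± 0.847 CPM in rev. The type II receptor gene Acvr2a was higher at 2h by 0.58 (edgeR adjusted p = 6.6e-04) and not called at 4h against 0h (0.31, adjusted p = 0.065), with 13.3 ± 2.09 CPM at 0h and 13.2 ± 1.56 CPM in rev, and 7.84% of its exons overlap Orc4 on the opposite strand, whose reads may be included. The kinase gene Hipk2 was higher at 4h by 0.59 (edgeR adjusted p = 5.9e-05). Eomes, a T-box factor of mesendoderm, went from 3.85 ± 1.06 to 7.46 ± 2.00 CPM at 4h (log2 fold change 0.98, edgeR adjusted p = 1.5e-04). The co-receptor gene Tgfbr3 was higher in rev than at 4h by 0.58 (edgeR adjusted p = 0.00496). Id3, a BMP target included for contrast, rose from 3.41 ± 2.65 to 27.6 ± 1.23 CPM at 4h and returned to 2.57 ± 0.803 CPM in rev. Of the embryo targets under the level set for naming, 2 are given here after their values were seen. The mesoderm factor T was at 1.74 ± 1.30 CPM at 0h, 3.90 ± 3.30 CPM at 2h, 10.1 ± 5.53 CPM at 4h and 2.80 ± 1.24 CPM in rev, a log2 fold change of 2.54 at 4h (edgeR adjusted p = 2.8e-09) and of -1.89 from 4h to rev (adjusted p = 5.4e-07). Gsc, a Nodal target, was lower at both times, at 3.76 ± 1.35 CPM at 0h, 1.88 ± 0.418 CPM at 2h, 1.30 ± 1.23 CPM at 4h and 5.76 ± 0.561 CPM in rev. From 4h to rev, 2 of the 32 were higher, Tgfbr3 and Gsc, and 8 were lower, where 7.93% of all genes were higher and 8.43% lower. Between 2h and 4h, 3 were higher and 0 lower, where 3.80% and 3.52% of all genes were. In rev against 0h 6 were higher and 0 lower, where 12.4% and 9.86% of all genes were. The medians for 4h to rev, 2h to 4h and rev against 0h were -0.085, 0.063 and 0.16 in the list and 0.014, -0.0016 and -0.0068 among all genes.

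**Figure D5:**
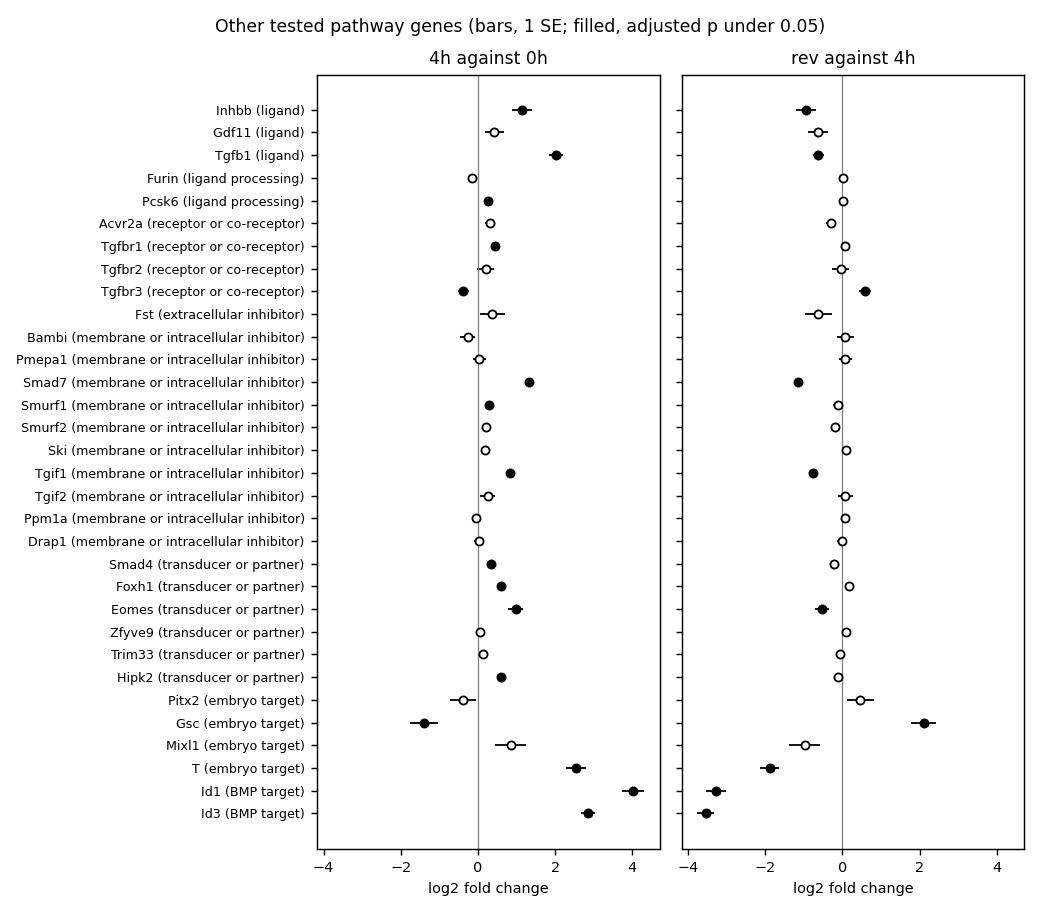
Log2 fold changes of the tested pathway genes that are not among the 10, by role, at 4h against 0h and rev against 4h, 1 point per gene, filled where the edgeR adjusted p was under 0.05. Most called genes lie above 0 at 4h, 14 higher and 2 lower, and below 0 from 4h to rev, 2 higher and 8 lower.

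Genes whose pattern over the 16 libraries was most like that of Nodal, Lefty1 and Lefty2 were taken as the 3 with the highest Pearson correlation of log2 CPM among 8646 tested genes with a mean of at least 5 CPM. For Lefty1 these were S1pr1 (r = 0.93), Gadd45b (0.92) and Fgf4 (0.91), and within the clones, 8 libraries each, their correlations were 0.94 and 0.93, 0.94 and 0.94, and 0.95 and 0.97. For Lefty2 they were Myof (0.99), Acadm (0.97) and Emp1 (0.97), with lower values of 0.34 to 0.73 within the clones. For Nodal they were Tamm41 (0.93), Cobl (0.92) and Sh3glb1 (0.92), whose correlations within a clone ran from 0.080 to 0.80. The points share treatment groups and depth, and for Lefty2 and Nodal the clones stand apart, so these values describe the libraries only.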

How the data were processed

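RNA from 16 samples in 4 groups of 4 was measured. The authors deposited unnormalized counts of reads per gene, which are whole numbers and sum to a different total in every library. Per the submitters' processing notes, bcl2fastq 2.19.1 and STAR 2.5.3a were used with build mm10 (GRCm38). The counting tool, annotation and strand setting are not given in the sources used here. Of 52636 identifiers, 52489 matched GENCODE M21, used for symbols, positions and exon lengths. The counts were fitted with edgeR 4.0.16 (with limma 3.58.1, under R 4.3.3): filterByExpr over the groups, TMM scaling and a quasi-likelihood fit of group and clone to all 16 libraries. The 5 comparisons were two-sided contrasts with Benjamini-Hochberg adjustment over 12215 genes at 0.05. Standard errors were derived from the F statistics. A fit with a term for each group and clone gave the differences between clones. The calculation was tested on simulated data.

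The members and lists were chosen with earlier results of these data known. All 10 genes are named. A check gene outside the 10 is not reported here. Other pathway genes are named where called in a comparison with an absolute log2 fold change of 0.5 or more there and a mean over all libraries of 5 CPM or more. The labels do not say whether the 2 replicates of a clone were grown separately, so p-values measure the spread between these samples, part of which may be technical. Alternatives were other scalings and filters, no clone covariate, a replicate block, only the 2 groups compared, DESeq2 1.42.0 and leaving out each library. The model share as a covariate and the removal of the 8 abundant models came from earlier work on these data, and leaving out the 2 shallowest libraries was chosen after seeing the depths.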

Additional observations from a re-analysis of the deposited data

Results flagged for a closer look

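In the 40 sets of 4 libraries examined (10 genes in 4 groups), 1 held a library far from the other 3 by Dixon's criterion. For values of a single distribution, chance alone meets it in about 1 in 20. Each set mixes 2 clones, so that rate does not hold where the clones stand apart, and a deviating library can be missed there. Smad3 at 2h stood at 17.3 CPM in clone 8 replicate 2 and at 12 to 12.7 CPM in the other 3 samples.

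The change of Skil from 0h to 4h differed between the clones by -0.70 on the log2 scale (0.84 in clone 4 and 0.14 in clone 8, edgeR adjusted p = 0.023), by a test of the difference itself. That call was lost when any of several single samples was left out (edgeR adjusted p 0.0608 to 0.223). It was also lost with library size alone (edgeR adjusted p = 0.108).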

How the results depend on the processing

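The 10 genes and 5 comparisons gave 50 log2 fold changes, and no called value changed sign under any alternative run. RLE size factors, removing the 8 abundant models, a filter at a mean of 1 CPM and leaving out the 2 shallowest libraries kept all 50 on their side of the threshold. DESeq2 and a replicate block each kept 49, only the 2 groups compared and the model share as a covariate 48 each, no low-count filter 47, no clone covariate 39 and library size alone 32. Of 800 values with 1 library left out, 14 lost a call and 5 gained one. With library size alone, 0 genes were higher and 0 lower at 2h against 0h, 1 higher and 1 lower at 4h against 0h, 0 higher at 4h against 2h, 1 higher and 3 lower in rev against 4h, and 0 higher in rev against 0h, where over all 12215 genes 204 and 134, 554 and 327, 88 higher, 57 and 1671, and 105 higher were called. Without clone as a covariate, 0 were higher at 2h, 2 higher at 4h against 0h, 0 higher at 4h against 2h, 0 lower in rev against 4h and 0 higher in rev against 0h, where over all genes 747, 1459, 129, 463 and 876 were called. Only the 2 groups compared gave 2 lower in rev against 4h, and the share covariate 2 higher in rev against 0h. With 1 library left out, the number higher at 4h against 2h was 1 to 3 and lower 0 to 1, the number lower in rev against 4h was 1 to 2, and the number higher in rev against 0h was 1 to 2. Same-numbered samples did not deviate together over all genes (mean correlation 0.0037 over 12 pairs, -0.12 to 0.069). This cannot show whether they were handled together, since shared handling need not shift all genes. The replicate block changed only the call of Acvr1b at 4h against 0h (-0.29, edgeR adjusted p = 0.0506). The cause of these differences was not tested. Depth limits Lefty1 most, with 9 counts in its shallowest library.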
